A study of Mus musculus with 9 samples.

Results

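Voltage-gated sodium channel genes of the brain were examined in the hippocampus of Angelman syndrome model mice treated with an antimiR against miR-134. The set was chosen by gene symbol and holds 8 of the 54532 genes in the deposited count table. The 5 alpha subunit genes are Scn1a, Scn2a, Scn3a, Scn8a and Scn9a, and the 3 beta subunit genes are Scn2b, Scn3b and Scn4b. All 8 had enough counts to be tested. Scn3b was included as a gene that the study had listed as raised in these same samples, so its test here is not independent evidence of its direction.

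All 9 animals were N4 Ube3a m-/p+ mice, which inherited a mutated Ube3a copy from the mother and come from repeated backcrossing that made the line susceptible to sound-evoked seizures. Treated and control mice thus share the Angelman genotype, and no wild-type group is compared here. On postnatal day (P) 21, 5 mice received Ant-134, an oligonucleotide complementary to miR-134, and 4 received Scr, a scrambled oligonucleotide, into the cerebral ventricle. Both groups underwent audiogenic seizure induction, that is loud sound, at P22, P24 and P26, and tissue was taken 24 h after the last session. Each library is poly-A-selected RNA from the injected-side hippocampus of 1 mouse, so all values describe a mixture of cell types after repeated sound stimulation. Mature miR-134 is not captured in such libraries, and its knockdown was therefore not checked here.

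The alpha subunit of a sodium channel forms the pore that carries the rising phase of the action potential. Beta subunits are small membrane proteins with an immunoglobulin-like domain that shift the voltage dependence of the pore, guide the channel to the membrane and act in cell adhesion. In the hippocampus, excitatory neurons rely mainly on the channels encoded by Scn2a and Scn8a, while Scn1a is best known from GABAergic interneurons, and mutations in several of these genes cause epilepsy.

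Totals per library ran from 28583298 to 41978113 counts on genes. The unit of a level is CPM, in which counts are divided by the library size after TMM normalization, and 3 counts, taken as the floor of detection, are between 0.0709 and 0.107 CPM. Levels of different genes are compared as FPKM, which also divides by gene length. The threshold used throughout is an unadjusted p below 0.05 in the quasi-likelihood test of edgeR. It was passed by 827 of 19782 genes (4.18%), of which 294 (1.49%) were higher and 533 (2.69%) lower after Ant-134. After Benjamini-Hochberg adjustment 0 genes passed in edgeR and 16 passed in DESeq2, none of them a sodium channel gene. Markers of CA1 and CA3 pyramidal cells, dentate granule cells, interneurons and neurons in general were above 0 in every library. Those of striatum, thalamus and choroid plexus were too, so presence alone does not check the hippocampus label.

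Because Ant-134 acts on a microRNA, the 3' UTRs of the sodium channel genes were searched for sites that match its seed in whole or in part. A microRNA binds mainly through bases 2 to 8 at its 5' end, and binding lowers the level or translation of the target mRNA. The mature strand, from RefSeq, lies at chr12:109734145-109734166 on the plus strand of GRCm38, and its capitals mark the seed.
mmu-miR-134-5p: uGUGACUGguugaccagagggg

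A site was a match to CAGTCAC or to AGTCACA on the sense strand of the longest annotated 3' UTR, and both together, which overlap, were counted as 1 site. CAGTCAC pairs with bases 2 to 8, whereas AGTCACA pairs with bases 2 to 7 only and has its last A opposite base 1, outside the seed. Of the 8 genes, 4 held a site, all of them alpha subunit genes and each with 1. Scn9a had the only site of 8 bases, at chr2:66483039-66483046 on the minus strand. The sites of 7 bases, all of the form AGTCACA, lay in Scn2a at chr2:65765573-65765579 on the plus strand, in Scn3a at chr2:65459335-65459341 on the minus strand and in Scn8a at chr15:101043948-101043954 on the plus strand. They are shown in GRCm38 as the mRNA reads, 5' to 3', with the site in capitals.
Scn9a: gcacatgctcaCAGTCACAaacacaaacag
Scn2a: atgttccatagAGTCACAaccatcaaagag
Scn3a: ttggtaagaagAGTCACAtgttggtggtag
Scn8a: gagaggctgggAGTCACAgggcagagggtg

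These UTRs are long, from 2104 bases in Scn1a to 5250 in Scn8a, against a median of 960 over 21037 protein-coding genes, and long UTRs hold more matches by length. Among all genes 17.0% held a site. Among genes whose UTR was within 20% of the length of the Scn9a UTR it was 39.2%, and 31.7%, 40.9% and 49.0% for the lengths of Scn2a, Scn3a and Scn8a. Scn3b, with a UTR of 3181 bases, held none, where 37.8% of genes of like UTR length held one. Scn1a, Scn2b and Scn4b held none either, which says only that these letters are not in the UTR searched.

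The same UTRs were searched for TGTANATA, the element bound by Pumilio proteins, since Pum2 is a described target of miR-134 and Pumilio is known to repress sodium channel mRNAs in flies and rodents. The element was found 22 times in 6 of the 8 genes, and 20 of these lay in the 5 alpha subunit genes, every one of which held at least 3. Scn2a and Scn9a held 5 each, Scn1a held 4, Scn3a and Scn8a held 3 each, and Scn2b held 2. Scn3b and Scn4b held none. Over all genes the share with an element was 23.2%, and among genes of like UTR length it was 35.3% for Scn1a, 40.6% for Scn2a, 48.6% for Scn3a, 62.1% for Scn8a, 47.7% for Scn9a, 50.5% for Scn2b, 46.2% for Scn3b and 50.2% for Scn4b.

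The elements of Scn3a at chr2:65459587-65459594 (minus strand), Scn2a at chr2:65765971-65765978 (plus strand) and Scn1a at chr2:66271887-66271894 (minus strand) are shown because they have the same form. It is not particular to these 3 neighbouring paralogs, since Scn8a (at UTR base 2246) and every Scn9a element have it too. Capitals mark the element.
Scn3a: accctctgttaTGTAAATAgttattttatc
Scn2a: aaagtctgcttTGTAAATAgtaattttacc
Scn1a: gctatttattaTGTAAATAgtcattttact

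In Scn9a the same form recurs near the end of the UTR, on the minus strand at chr2:66480509-66480516, chr2:66480464-66480471 and chr2:66480419-66480426, in that order along the mRNA, and the copies are shown for their spacing and flanks.
Scn9a copy 1: acaaatgcataTGTAAATAaagcagcccat
Scn9a copy 2: aaatgttaataTGTAAATAaagcagccctt
Scn9a copy 3: aaatgttaataTGTAAATAaagcagtcctt

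**Figure D1:**
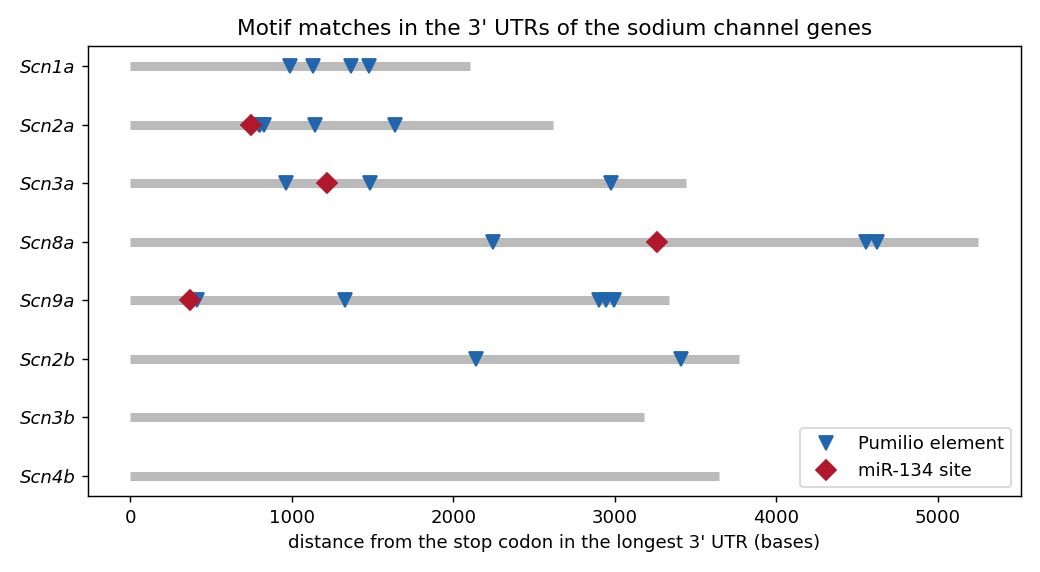
Position of miR-134 sites (diamonds) and Pumilio elements (triangles) along the longest 3' UTR of each sodium channel gene (grey bars), in bases from the stop codon. Sites appear in 4 alpha subunit genes, Pumilio elements in all 5 alpha subunit genes and Scn2b, and neither in Scn3b or Scn4b.

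Most of the set lies in clusters in the genome. Scn3a, Scn2a, Scn1a and Scn9a lie within 1.18 Mb of chromosome 2 (GRCm38 chr2:65457118-66634962), Scn3b, Scn2b and Scn4b within 4.88 Mb of chromosome 9 (chr9:40269217-45154152), and Scn8a stands alone on chromosome 15 (chr15:100869858-101045938).

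Scn2b and Scn3b were the most abundant of the 8 genes per length. Over the 9 mice, Scn2b was at 58.6 ± 3.82 FPKM (SD, n = 9) and Scn3b at 52.5 ± 2.98 FPKM, and Scn2b was the higher of the pair in 9 of 9 mice although their ranges overlapped. Next came Scn8a at 21.4 ± 1.72 FPKM and Scn2a at 20.3 ± 1.80 FPKM. Their order was not stable, since Scn8a was above Scn2a in 6 of 9 mice. Scn1a followed at 9.06 ± 0.832 FPKM, below Scn2a in 9 of 9 mice with no overlap of the ranges. Scn3a, the alpha subunit gene best known from the embryonic brain, was at 4.50 ± 0.305 FPKM and Scn4b at 3.62 ± 0.716 FPKM, with Scn3a the higher in 7 of 9 mice. Scn9a, which encodes the channel of peripheral sensory neurons, was lowest at 0.435 ± 0.0524 FPKM. Scn4b was still between 4.91 and 12.3 times as high as Scn9a in each mouse.

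**Figure D2:**
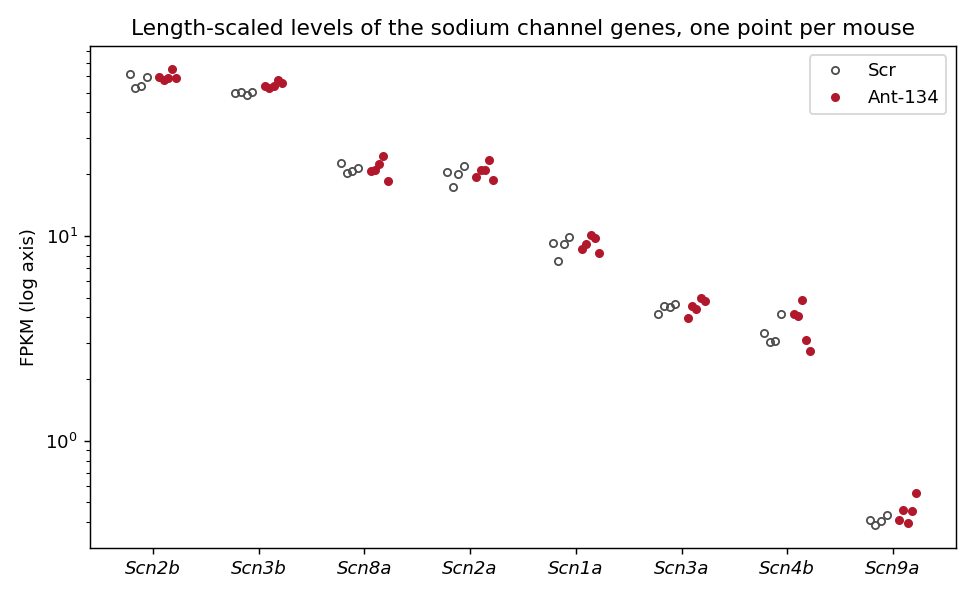
FPKM (log axis) of the 8 sodium channel genes, ordered by mean level, with 1 point for each of the 4 Scr mice (open) and 5 Ant-134 mice (filled). Levels run from 58.6 FPKM for Scn2b to 0.435 FPKM for Scn9a, and the groups overlap for all genes but Scn3b.

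The make-up of the channel mRNA pool was close between the groups. Of the summed FPKM of the 5 alpha subunit genes, Scn8a made 38.0% ± 1.15 (SD, n = 5) after Ant-134 and 38.8% ± 1.72 (SD, n = 4) after Scr, and Scn2a 36.8% ± 0.615 and 36.1% ± 1.22. Scn1a made 16.3% and 16.2%, Scn3a 8.10% and 8.13%, and Scn9a 0.820% and 0.745%. Of the summed FPKM of the 3 beta subunit genes, Scn2b made 50.7% ± 0.668 and 51.6% ± 1.73, Scn3b 46.1% ± 0.815 and 45.3% ± 1.89, and Scn4b 3.21% ± 0.780 and 3.09% ± 0.368. The ranges of the groups overlapped for each of these shares, Scn3b included. The summed beta FPKM was 119 ± 4.48 (range 114 to 126) against 110 ± 4.83 (106 to 115), and the summed alpha FPKM 56.2 ± 4.76 (50.8 to 63.2) against 55.0 ± 3.68 (49.9 to 58.3). The ratio of beta to alpha was 2.12 ± 0.134 and 2.00 ± 0.0844, again with overlap. Scn3a, the fetal form, stood to Scn2a at 0.220 ± 0.0201 after Ant-134 and 0.226 ± 0.0261 after Scr. These shares and ratios are given as descriptions, with no test.

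The comparison of Ant-134 with Scr asked which sodium channel genes differed after silencing of miR-134 in mice given the same schedule of sound stimulation. The labels do not give the seizure response of each mouse, so treatment and seizure response cannot be told apart. Scn3b was the only one of the 8 past the unadjusted threshold, and it was higher by 9.61% (95% interval 3.15 to 16.5%). None was lower. One called gene of 8 stands beside 4.18% of all genes tested, and Scn3b entered the set as a raised gene, so nothing is read from the count. In DESeq2, where 2.74% of 37435 genes passed, Scn3b was the only member past the unadjusted threshold. DESeq2 is the tool by which the study listed Scn3b, and it called 1027 genes here as there. Its result is therefore not a second piece of evidence for Scn3b.

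The alpha subunit genes did not pass the test. Scn1a (chr2:66270778-66440840, minus strand) was at 96.80, 102.4, 113.5, 109.9 and 92.42 CPM in Ant-134 replicates 1 to 5 and at 103.4, 84.74, 102.7 and 111.6 CPM in Scr replicates 1 to 4. The groups overlapped widely and Scr replicate 2 was lowest. The log2 fold change was 0.034 (SE 0.080, 95% interval -0.14 to 0.21), with p = 0.679 in edgeR and 0.698 in a two-sided exact permutation test.

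Scn2a (chr2:65620771-65767447, plus strand), which encodes the main channel of excitatory axons early in life, was at 249.1, 268.6, 268.2, 303.0 and 240.7 CPM after Ant-134 and at 262.9, 222.5, 256.6 and 280.7 CPM after Scr. Both the highest and the next-to-lowest mouse were from the Ant-134 group. Its log2 fold change was 0.057 (SE 0.074, 95% interval -0.10 to 0.22), with p = 0.455 in edgeR and 0.556 in the exact permutation test.

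Scn3a (chr2:65457118-65567627, minus strand) was at 49.88, 56.97, 55.31, 63.04 and 60.06 CPM after Ant-134 and at 52.43, 57.24, 56.32 and 58.31 CPM after Scr. The Ant-134 mice lay both below and above all Scr mice. Its log2 fold change was 0.025 (SE 0.062, 95% interval -0.11 to 0.16), with p = 0.700 in edgeR and 0.762 by exact permutation.

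Scn8a, which encodes the channel that sets the spike threshold at the mature axon initial segment, was at 329.1, 331.7, 356.9, 391.2 and 292.3 CPM after Ant-134 and at 360.9, 324.2, 329.9 and 342.3 CPM after Scr. Its group means, 340.2 ± 36.6 (SD, n = 5) and 339.3 ± 16.3 CPM (SD, n = 4), were the closest of the set relative to their level. The log2 fold change was 0.0040 (SE 0.070, 95% interval -0.15 to 0.15), with p = 0.956 in edgeR and 0.992 by exact permutation.

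Scn9a (chr2:66480080-66634962, minus strand), the alpha gene with the site of 8 bases for miR-134, rested on 144 to 228 counts per library. It was at 5.30, 5.93, 5.13, 5.86 and 7.18 CPM after Ant-134 and at 5.27, 5.04, 5.22 and 5.59 CPM after Scr. Of the 5 Ant-134 mice, 3 were above the highest Scr mouse and 1 of these, replicate 5, stood well above the rest. The log2 fold change was 0.16 (SE 0.12, 95% interval -0.097 to 0.41), with p = 0.208 in edgeR and 0.175 by exact permutation. Without Ant-134 replicate 5 it was 0.075. Gm13629, an antisense gene that overlaps Scn9a, had 31 to 69 counts, equal to 23.9% of the Scn9a counts, and strand use in the counting is not given in the sources used here, so reads of the pair cannot be told apart where they overlap. For the other sodium channel genes, overlapping genes had at most 1.08% as many counts.

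The 4 alpha genes with a miR-134 site had log2 fold changes from 0.0040 (Scn8a) to 0.16 (Scn9a), and Scn1a without a site lay within that span at 0.034. The upper ends of the 95% intervals, 0.15 for Scn8a, 0.16 for Scn3a, 0.22 for Scn2a and 0.41 for Scn9a, are the largest differences within their intervals.

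Among the beta subunit genes, Scn2b (chr9:45117782-45130070, plus strand), whose product is linked to the pore by a disulfide bond, was at 279.1, 271.0, 278.5, 308.2 and 274.7 CPM after Ant-134 and at 287.4, 248.0, 253.1 and 280.4 CPM after Scr. Only Ant-134 replicate 4 was above all Scr mice, while all 5 were above the Scr median. The log2 fold change was 0.079 (SE 0.055, 95% interval -0.037 to 0.20), with p = 0.167 in edgeR and 0.254 by exact permutation. Without Ant-134 replicate 4 or without Scr replicate 2 it was 0.045.

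Scn3b (chr9:40269217-40291618, plus strand), whose product binds the pore without a covalent bond, was at 296.1, 289.7, 295.8, 319.3 and 306.0 CPM after Ant-134 and at 274.3, 279.3, 269.8 and 276.6 CPM after Scr. All 5 Ant-134 mice were above all 4 Scr mice, the lowest at 289.7 CPM against the highest Scr mouse at 279.3 CPM. Such a separation occurred in 1.54% of the 19782 genes tested, with Ant-134 higher in 0.647% and lower in 0.895%, and in no other sodium channel gene. The means were 301.4 ± 11.6 CPM (SD, n = 5) and 275.0 ± 4.01 CPM (SD, n = 4), and the log2 fold change was 0.13 (SE 0.041, 95% interval 0.045 to 0.22). Its unadjusted p was 0.00578 in edgeR, 0.000441 in DESeq2 and 0.00794 in a two-sided exact permutation test over the 126 splits of the 9 mice, the smallest that test can give. Adjusted over all genes tested by the Benjamini-Hochberg method, Scn3b did not pass (adjusted p = 0.998 in edgeR, 0.248 in DESeq2), and the other 7 members had adjusted p values of 0.998 to 1.0 in edgeR.

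Scn4b (chr9:45138395-45154152, plus strand), known from striatal and Purkinje neurons and for its part in resurgent sodium current, was at 20.93, 20.43, 24.56, 15.59 and 13.77 CPM after Ant-134 and at 16.89, 15.32, 15.52 and 20.85 CPM after Scr. The lowest and the highest mouse both belonged to the Ant-134 group, and the highest was 1.78 times the lowest. The log2 fold change was 0.15 (SE 0.17, 95% interval -0.22 to 0.53), with p = 0.386 in edgeR and 0.492 by exact permutation. This fold change is above that of Scn3b, but its interval includes 0.

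**Figure D3:**
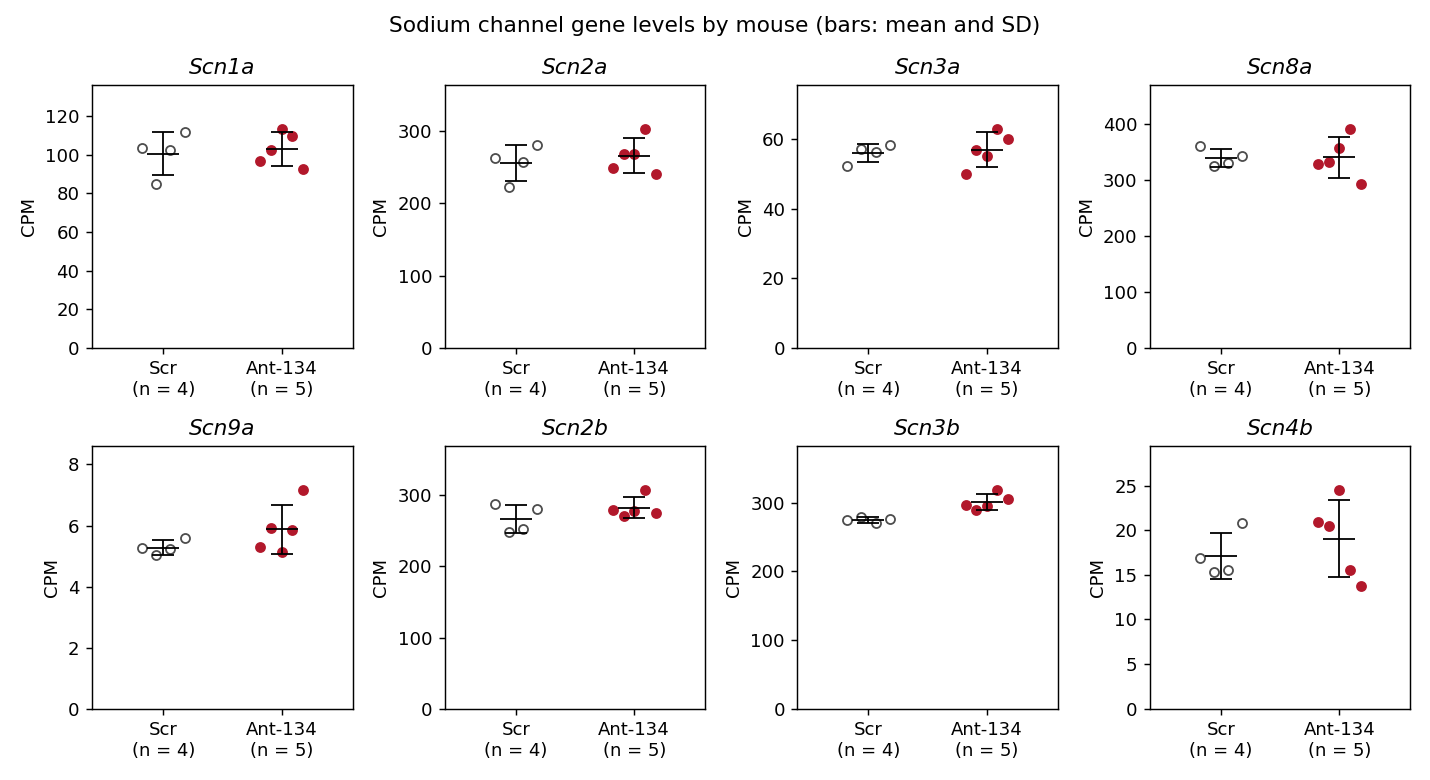
CPM of each sodium channel gene in the 4 Scr mice (open) and 5 Ant-134 mice (filled), with the mean and SD of each group; every axis starts at 0. Only in Scn3b do all Ant-134 mice (289.7 CPM and above) lie over all Scr mice (279.3 CPM and below).

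Scn3b was also the steadiest gene of the set and Scn4b the most variable. The coefficient of variation over the 9 mice was 5.64% for Scn3b, 6.46% for Scn2b, 6.87% for Scn3a, 8.16% for Scn8a, 8.88% for Scn2a, 9.20% for Scn1a, 11.9% for Scn9a and 19.8% for Scn4b. The biological coefficient of variation over all genes, from the common dispersion of edgeR, was 11.9%. It leaves out counting error and the group difference, which the values of the single genes include, so the measures are not alike. Scn9a and Scn4b had larger log2 fold changes than Scn3b, 0.16 and 0.15 against 0.13, with standard errors of 0.12 and 0.17 against 0.041.

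All 8 fold changes were above 0, where 51.2% of all genes tested were, and their median was 0.068 against 0.0026 for all genes. The members share the same 9 libraries, so they are not separate observations of the direction, and no test was made of it. The sign depended on single mice for Scn1a, Scn2a, Scn3a and Scn8a, and not for Scn9a or the beta subunit genes. Without Ant-134 replicate 4 it was positive for 6 of 8 and without Scr replicate 2 for 5 of 8. Ant-134 replicate 4 was the highest mouse in 5 of the 8 genes (Scn2a, Scn3a, Scn8a, Scn2b and Scn3b), and Scr replicate 2 the lowest in 4 (Scn1a, Scn2a, Scn9a and Scn2b).

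**Figure D4:**
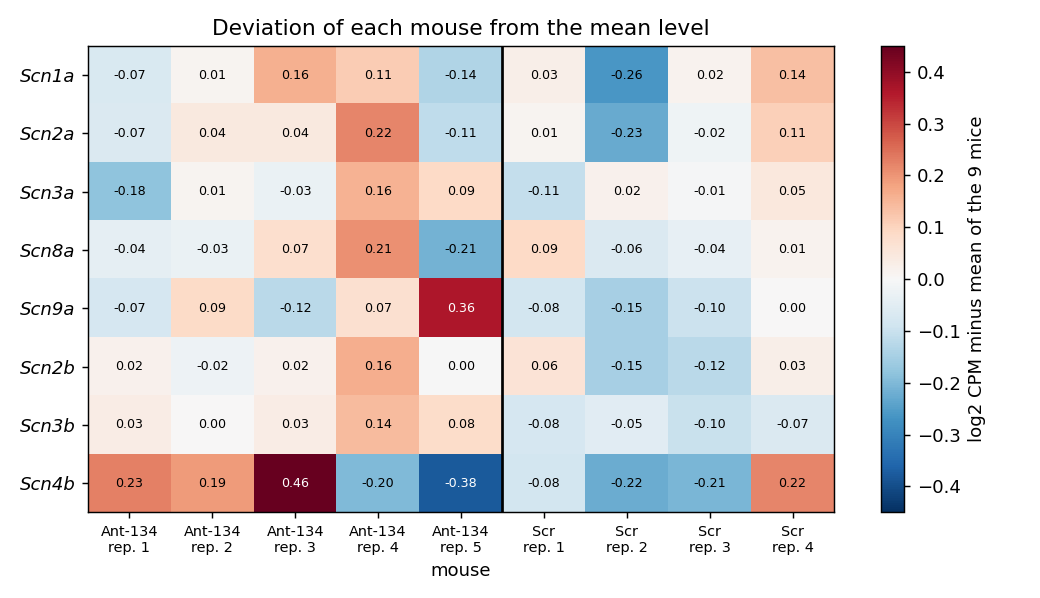
Deviation of each mouse from the mean log2 CPM of the 9 mice, for each sodium channel gene (rows); red is above and blue below the mean. Only the Scn3b row is above or at the mean in all Ant-134 mice and below it in all Scr mice, while Scn4b swings furthest, highest in Ant-134 replicate 3 and lowest in Ant-134 replicate 5.

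Sodium channel mRNA comes mainly from neurons, and the markers of cell types moved as follows beside the Scn3b difference. Of 8 general neuronal markers, 7 had a positive fold change and 1, Snap25, which encodes a protein of synaptic vesicle release, passed the threshold (log2 fold change 0.12, SE 0.053). Their summed level was 5604 to 6104 CPM after Ant-134 and 5491 to 5802 CPM after Scr, with none at 0. Taken as a percentage of that sum, Scn3b was 5.13% ± 0.243 (range 4.85 to 5.46, n = 5) against 4.90% ± 0.136 (4.77 to 5.09, n = 4), and the groups then overlapped. Of 6 dentate granule cell markers, 4 had a positive fold change, with a median of 0.12, and Dsp passed the threshold (log2 fold change 0.18, SE 0.069). The sum of this list was 310.4 to 398.1 CPM after Ant-134 and 307.7 to 366.1 CPM after Scr. The groups overlapped also when Scn3b was set against the markers of dentate granule cells, CA1 pyramidal cells, CA3 pyramidal cells or interneurons.

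Microglial markers were lower after Ant-134 in 8 of 8 genes, and 5 passed the unadjusted threshold (Csf1r, C1qa, C1qb and Aif1 among them). Of all genes tested, 2.69% were called lower. The smallest adjusted p of this list was 0.952 in edgeR. In each single microglial marker the groups overlapped. Only the summed level did not overlap, at 376.9 to 409.7 CPM against 426.6 to 485.7 CPM. Endothelial markers were lower in 8 of 8, of which 1, Slco1c1, passed, with sums of 198.3 to 247.7 against 206.9 to 292.7 CPM. In bulk tissue fewer cells of a type and less RNA per cell cannot be told apart. The part of these shifts in the Scn3b difference was not tested.

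Oligodendrocyte markers followed Scn4b over most of the mice. The 3 Ant-134 mice with the most Scn4b (20.43 to 24.56 CPM) had sums of 8 oligodendrocyte markers of 10160 to 12730 CPM, and the 2 with the least (13.77 and 15.59 CPM) had 7545 and 8947 CPM. Among the Scr mice, whose sums spanned only 9502 to 10240 CPM, replicate 2 was lowest and replicate 4 highest for both. Sums of oligodendrocyte precursor and of choroid plexus markers were also higher in the former 3 Ant-134 mice than in the latter 2. In Scr replicate 4, however, they were the lowest of the Scr group, at 474.3 and 80.45 CPM. Thalamic markers followed Scn4b in 1 mouse. Ant-134 replicate 3, the highest for Scn4b, had the highest sum of 8 thalamic markers, 177.1 CPM, but the next highest sum, 141.9 CPM, was that of Scr replicate 3 with 15.52 CPM of Scn4b. Of these markers 1, Lef1, passed the threshold (log2 fold change 0.44, SE 0.19). Striatal markers summed to 59.11 to 79.86 CPM after Ant-134 and 64.81 to 86.35 CPM after Scr. No marker of these lists was at 0, and their part in the Scn4b values was not tested.

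The genes whose level followed that of Scn3b most closely over the 9 mice, by Pearson correlation of log2 CPM, were 9530062K07Rik (r = 0.937), Bmt2 (r = 0.927) and Smim10l1 (r = 0.917). For Scn4b, the gene of largest spread, they were Ado (r = 0.961), Cplx1 (r = 0.933) and Rnf115 (r = 0.931). These are the closest of 19782 genes over 9 libraries that share depth and group, and are given as a description.

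Further channel genes were read beside the set. The leak channel gene Nalcn was at 7.25 FPKM with a log2 fold change of 0.042 (95% interval -0.077 to 0.16). The sodium-sensing gene Scn7a was tested at low counts, with a log2 fold change of 0.14 (SE 0.26). Scn4a and Scn10a had 0 to 8 counts and Scn11a 0 to 6 counts per library, and were not tested.

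**Figure D5:**
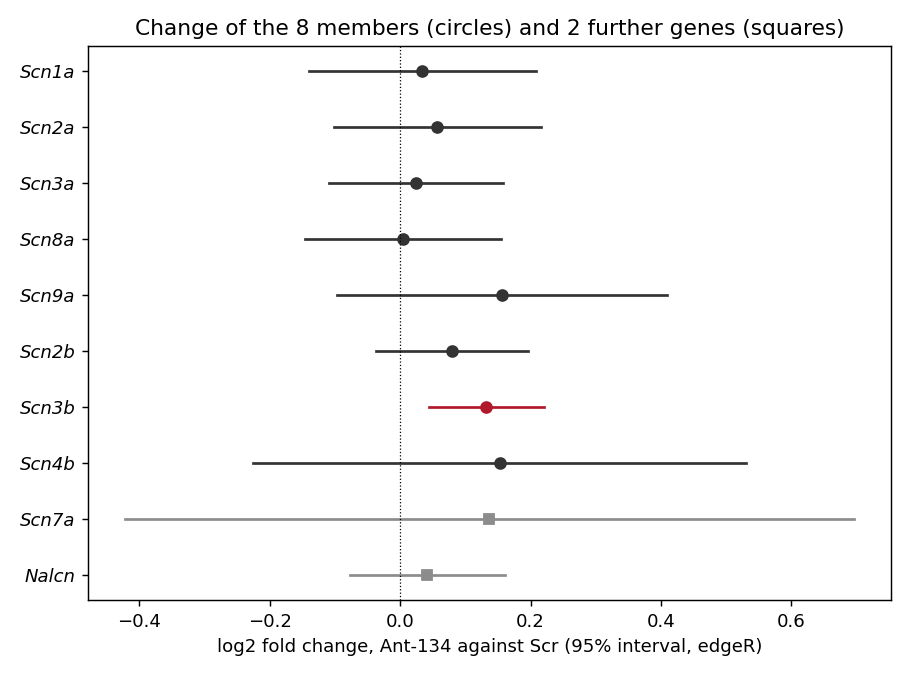
Log2 fold change of Ant-134 against Scr with its 95% interval from edgeR, for the 8 sodium channel genes (circles) and 2 further channel genes (squares). The interval excludes 0 for Scn3b alone, from 0.045 to 0.22.

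Genes that act on or around the channels were followed in 6 lists of 51 genes, of which 48 were tested. None passed the unadjusted threshold in either direction in edgeR or in DESeq2, and the smallest p values were 0.0768 and 0.0809. Fold changes were positive for 31 of the 48, with a median of 0.025, against 51.2% positive and a median of 0.0026 over all genes. Besides the other channel genes, the lists were as follows. Of 11 intracellular partners that bind the channel, 9 were positive with a median of 0.022, and the most abundant, Fgf13, a homologous factor that modulates channel inactivation, was at 56.9 FPKM with a log2 fold change of 0.051. Of 11 scaffold and adhesion genes of the axon initial segment, where the channels cluster, 7 were positive with a median of 0.016. In this list the most abundant gene, Sptan1, had a log2 fold change of 0.0031, and Ank3, the organiser of the segment, -0.0012.

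Of 8 genes of the proteases that cut beta subunits, 3 were positive with a median of -0.0035. Psenen, a part of gamma-secretase, was the most abundant at 28.1 FPKM with a log2 fold change of -0.036, and Bace1, which cleaves beta subunits outside the membrane, was at 0.029. Of 6 subunit genes of the sodium-potassium pump, which restores the sodium gradient, 4 were positive with a median of 0.024. The pump gene Atp1b1 was at 448 FPKM with a log2 fold change of 0.047, and Atp1b3, with the smallest p of all 48 genes (0.0768 in edgeR), was at -0.078. Of 8 regulators of channel RNA and transcription, 5 were positive with a median of 0.030. Rbfox1, a splicing factor, led this list, which shares Rbfox3 with the neuronal markers, at 55.0 FPKM with a log2 fold change of 0.11 (95% interval -0.021 to 0.24). Pum2, whose element recurs in the alpha subunit UTRs, had a log2 fold change of -0.0089 (95% interval -0.10 to 0.087). Rest, the repressor of neuronal genes, was at -0.069 (95% interval -0.28 to 0.14). Differences of these sizes were within the spread between mice.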

How the data were processed

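The authors removed low-quality reads, mapped the rest to GRCm38 with HISAT2 2.0.5 and counted them per gene with featureCounts 1.5.0-p3, per the labels and the study's methods, and the submitters' processing notes also name CASAVA 1.8. They deposited raw counts and FPKM values for 54532 genes in 9 samples. Counts were tested with edgeR 4.0.16 in R 4.3.3 (filterByExpr with a minimum count of 10, TMM, robust quasi-likelihood test, no covariate), and adjusted by the Benjamini-Hochberg method over 19782 genes. Scn3b and the other members were also compared by two-sided exact permutation tests of mean log2 CPM. Alternatives were DESeq2 1.42.0, its size factors, other filters, no robust estimation, a replicate block, limma 3.58.1 on log2 FPKM values with a pseudocount of 1 or 0.1 (a scale that understates changes of low genes), and leaving out each sample. The scripts were tested on simulated data.

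The members and lists were chosen with earlier results of these data known. Named genes are the 8 members, list genes with an unadjusted p below 0.05, the most abundant gene of each list by FPKM, and the 3 closest by correlation to Scn3b and to the member of largest spread. Scn7a, Nalcn, Scn4a, Scn10a, Scn11a, Ank3, Bace1, Atp1b3, Pum2 and Rest lie outside this rule and were named after their values were seen. A few list genes that the rule selects are left out of the text. UTRs came from GENCODE M21 and the miRNA from RefSeq (GRCm38.p6). Chi-square per gene between libraries of a group was 8.3 to 21.1, so none were duplicates. Floors and intervals of counts cover counting error only. Each library was from 1 mouse.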

Additional observations from a re-analysis of the deposited data

Results flagged for a closer look

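In 46 groups of values of the sodium channel genes, a check for a mouse far from the others of its group found 5, where chance alone gives about 1 in 20, or 2.3. Scn2b was at 308 CPM in Ant-134 replicate 4, where the other 4 Ant-134 mice lay between 271 and 279 CPM. In the same mouse the summed FPKM of the 3 beta subunit genes was 126, against 114 to 118 in the others. Ant-134 replicate 5 stood apart in the share of Scn3b in that sum, 47.6% against 45.6 to 46.0%, and in the ratio of Scn3a to Scn2a, 0.255 against 0.205 to 0.217. In Scr replicate 4 the share of Scn4b was 3.64%, against 2.86 to 2.94% in the other Scr mice.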

How the results depend on the processing

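Scn3b was the only sodium channel gene with an unadjusted p below 0.05 under each of the 18 alternatives. Its log2 fold changes ran from 0.11 to 0.15, and its p from 0.000441 (DESeq2) to 0.0175 (edgeR without Scr replicate 3). Adjusted p ran from 0.248 to 1.0 in the models of edgeR, DESeq2 and limma. DESeq2 is the tool by which the study listed Scn3b, and all alternatives reuse these samples, so they are not independent evidence. Of the 144 member values under alternatives, 9 reversed sign, none of them past the threshold before or after. These were Scn1a at -0.0036 and Scn8a at -0.015 without Ant-134 replicate 3, Scn3a at -0.015 and Scn8a at -0.052 without Ant-134 replicate 4, Scn3a at -0.0099 without Scr replicate 1, Scn1a at -0.041, Scn2a at -0.0043 and Scn8a at -0.017 without Scr replicate 2, and Scn8a at -0.0090 without Scr replicate 3. When each mouse was left out in turn, values ranged up to 0.088 for Scn1a, 0.11 for Scn2a, 0.069 for Scn3a and 0.054 for Scn8a. Scn4b was lowest, 0.047, without Ant-134 replicate 3 and highest, 0.26, without Scr replicate 4. Scn9a was at 0.075 without Ant-134 replicate 5 and at most 0.20, and Scn2b ranged from 0.045 (without Ant-134 replicate 4, and without Scr replicate 2) to 0.11. On log2(FPKM + 1), a scale that compresses low genes, Scn9a was at 0.047. The count of all genes called was 564 higher and 1211 lower, 1775 in all, with no filter on low counts, where more genes are tested. It was 462 higher on log2(FPKM + 1), 475 higher on log2(FPKM + 0.1), and 580 higher and 981 lower, 1561 in all, on log2(FPKM + 1) with no filter on low FPKM. Leaving out 1 mouse gave 194 (without Scr replicate 3) to 386 genes higher, 435 to 704 lower and 629 to 973 in all, and the cause was not tested. After adjustment 0 genes passed in edgeR, but 17 did without Ant-134 replicate 1, 1 each without Ant-134 replicates 2, 3 and 4, 14 with no filter and 2 with the replicate block, none of them a sodium channel gene. Same-numbered mice correlated at -0.146 to 0.0529 over 4 pairs, within the -0.284 to 0.293 of differently numbered mice. The replicate numbers were therefore not used as pairs in the main test. So few pairs cannot exclude pairing, and the study calls the control mice littermates, which was not tested. With the replicate number as a block, Scn3b was at 0.13 (SE 0.044, adjusted p = 0.996 in edgeR), Scn9a at 0.073, Scn4b at 0.25, and 808 genes were called. Counts of 144 to 228 limit the precision of Scn9a.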
